A study of Mus musculus with 2 samples.

Results

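Adipoq, Plin1, Cidec, Fabp4, Fabp5, Pparg, Lpl, Cd36, Lipe and Cfd are 10 genes of adipocyte identity and of the lipid droplet. They were read after total body irradiation of C57BL/6 mice, in stromal cells of the bone marrow. The 10 genes were taken by name from the 16390 genes that the platform annotation named, with older synonyms accepted (Plin1 is annotated there as Plin), and all 10 were on the array with 1 probe each. A ratio was listed for all 10 at day 3 and for 8 at day 1, where Plin1 and Cidec had none. The stromal cells were taken 3 days or 1 day after 9.5 Gy, or from unirradiated mice. Each time point was hybridised on 1 array, with irradiated RNA in Cy3 and unirradiated RNA in Cy5, and no dye swap was analysed here. The series text gives 6 mice without saying how they were divided or pooled, and the sources used here give neither the age and sex of the animals nor the way the stroma was isolated. Whether both arrays carried the same unirradiated RNA is also not stated, so the 2 sets of ratios may share their control.

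Adipocytes store fatty acids as triglyceride in a droplet whose surface proteins control its growth and its breakdown. PPARγ, the product of Pparg, is the nuclear receptor that drives adipocyte differentiation, and it acts as a partner of RXR on genes for lipid uptake and storage. In mouse marrow, adipocytes share a stromal lineage with the Lepr-expressing cells around the sinusoids, which also transcribe Adipoq and Lpl, and marrow is known to become fatty after irradiation. Several of these genes are also used outside fat: capillary endothelium uses Cd36, Fabp4, Fabp5 and Pparg, and macrophages use Cd36, Fabp4, Fabp5, Lpl and Pparg.

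Values below are log2 ratios of irradiated over unirradiated RNA with the median gene of each array at 0, and "higher" or "lower" in a count means a ratio of 2-fold or more, a log2 value of at least 1 in size. There is 1 array per time point, so no value has a replicate error and no test was made. The only spread that can be given is the pooled SD among several probes for one gene, 0.58 at day 3 (116 genes) and 0.76 at day 1 (85 genes). It is the spread of a single value, so a difference between 2 genes varies more than it. It does not cover variation from mouse to mouse or from one hybridisation to the next. The sources used here do not give the numerator of the deposited ratios. Irradiated over unirradiated is the likely direction because targets of p53, the transcription factor activated by DNA damage, had a median of 0.92 at day 3 and 1.57 at day 1, against medians of -2.97 and 0.95 for mitotic genes on the same arrays. The p53 target Cdkn1a, a cell cycle inhibitor, stood at 1.90 at day 3 and 2.23 at day 1, and Mdm2, the p53 ubiquitin ligase, at 1.06 and 2.26. Mki67, a proliferation marker, stood at -3.61 at day 3 and 1.32 at day 1. At day 1 both groups of genes lay above 0, so the basis for the direction is thinner there. The base of the logarithm is likewise unknown, and folds assume base 2. In bulk RNA, fewer cells of a type and less RNA per cell cannot be told apart. No ratio was listed for 8056 of 23473 probes at day 3 (34.3%) and for 9515 at day 1 (40.5%), and precision is limited by having so few arrays.

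In cells taken 3 days after irradiation, 8 of the 10 genes were higher than in unirradiated cells by the 2-fold rule, none was lower, and their median was 2.24. The same rule called 7.35% of all 11404 genes measured on that array higher and 6.85% lower. At day 1, 2 of 8 were higher (Pparg and Fabp4), 1 was lower (Adipoq) and 5 lay inside 2-fold, with a median of 0.57. Among the 10434 genes measured on the day 1 array, 19.6% were higher and 11.1% lower. The day 1 count of 2 of 8 higher is thus near the array's own share, whereas the day 3 count is not. With the ribosomal protein genes set at 0 in place of the median gene, every ratio shifts by 0.58 at day 3 and 0.51 at day 1. Of all genes measured, 24.9% are then higher and 2.3% lower at day 3, and 31.8% higher and 3.57% lower at day 1. Among the genes past 2-fold in either direction, the higher ones make up 91.6% at day 3 with that centring, against 51.8% with the median gene at 0, and 89.9% at day 1, against 63.9%. With the density peak of all genes at 0 they make up 43.1% at day 3 and 77.5% at day 1.

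**Figure D1:**
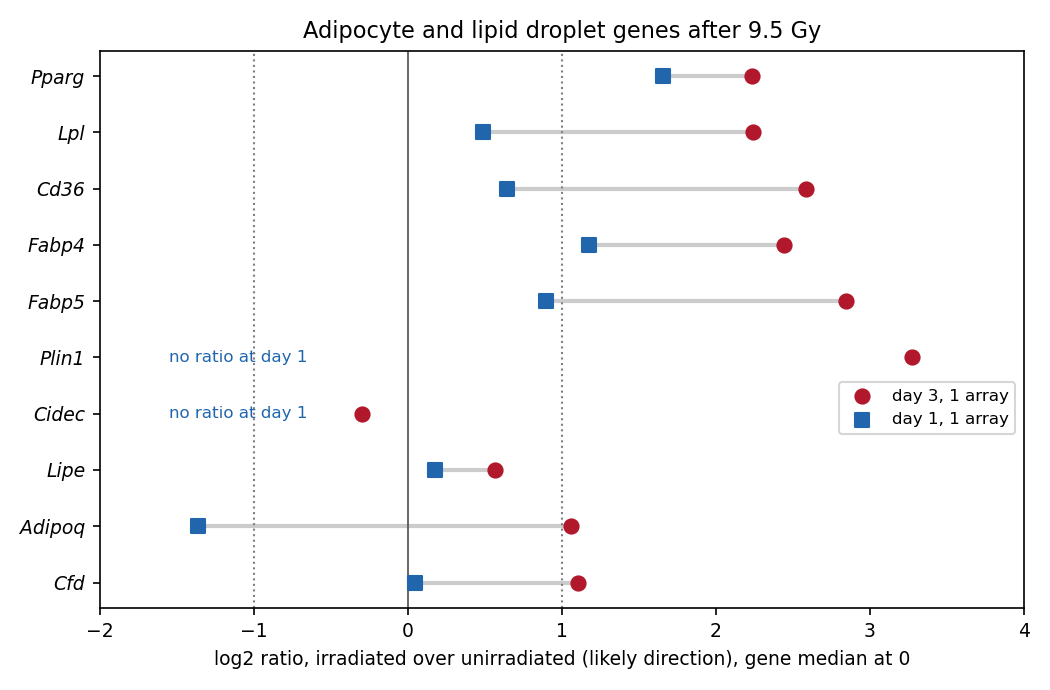
Log2 ratio of irradiated over unirradiated RNA for each of the 10 genes at day 3 and day 1, 1 array each, with the median gene at 0 and dotted lines at 2-fold. Plin1 is highest at day 3 at 3.27 and Cidec lowest at -0.30, and Adipoq lies on opposite sides of 0 on the 2 arrays.

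Pparg stood at 2.24 at day 3, which is 4.72-fold, and at 1.65 at day 1, which is 3.15-fold. Its day 1 ratio was the highest of the 8 but above Fabp4 by less than the spread between probes. Of the 8 genes with both ratios, Pparg and Fabp4 alone were past 2-fold on the higher side on both arrays. RefSeq (GRCm38.p6) places 3 start sites at Pparg, and the single probe cannot be assigned to any of them here. Windows from 250 bases before to 50 after the start are printed for starts 2 and 3, because Pparg is the regulator among the 10 and these windows differ in the short motifs they hold. Both lie on the plus strand, start 2 at chr6:115362099-115362398 and start 3 at chr6:115421816-115422115. Capitals mark AGGTCA, the half-site of nuclear receptors such as PPARγ, TATAAA and CCAAT, on either strand.
Pparg start 2: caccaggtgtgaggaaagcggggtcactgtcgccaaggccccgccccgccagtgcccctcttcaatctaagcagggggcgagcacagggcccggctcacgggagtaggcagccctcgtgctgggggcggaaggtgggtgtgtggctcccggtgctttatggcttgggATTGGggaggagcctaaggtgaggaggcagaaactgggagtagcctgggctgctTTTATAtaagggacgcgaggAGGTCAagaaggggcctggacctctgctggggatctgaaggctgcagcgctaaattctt
Pparg start 3: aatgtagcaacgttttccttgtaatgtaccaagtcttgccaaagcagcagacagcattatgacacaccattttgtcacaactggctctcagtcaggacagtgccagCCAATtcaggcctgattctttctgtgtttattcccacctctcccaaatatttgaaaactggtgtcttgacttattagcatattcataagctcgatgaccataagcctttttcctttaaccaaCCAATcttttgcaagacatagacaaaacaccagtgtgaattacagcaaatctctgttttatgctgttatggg
In the window of start 2 AGGTCA begins 9 bases before the start on the printed strand, TATAAA lies 29 bases before it on the opposite strand and CCAAT 83 bases before it on the opposite strand. The window of start 3 holds CCAAT on the printed strand at 144 and 22 bases before the start and neither of the other motifs. The window of start 1, not printed, holds AGGTCA on its plus strand, beginning 28 bases before the start, and neither of the other motifs.

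The genes for capture and transport of fatty acids were all high at day 3. Lpl, the lipase that frees fatty acids from lipoproteins at the vessel wall, stood at 2.24 at day 3 (4.73-fold) and 0.49 at day 1 (1.40-fold). Cd36, a fatty acid translocase and scavenger receptor, stood at 2.59 at day 3 (6.01-fold) and 0.65 at day 1 (1.56-fold). Fabp4, the fatty acid carrier of adipocytes, stood at 2.44 at day 3 (5.44-fold) and 1.17 at day 1 (2.26-fold). Each of these 3 genes was above 4-fold at day 3, and of the 3 only Fabp4 passed 2-fold at day 1. Fabp5, a carrier found in skin, macrophages and endothelium as well as in fat, stood at 2.85 at day 3 (7.20-fold) and 0.90 at day 1 (1.86-fold). The members were grouped by role with their values known, so the closeness of this group is described only. Together with Pparg these 5 genes spanned 0.61 at day 3, between 2.24 and 2.85. That is about as much as the 0.58 between probes of the same gene, so no order among them can be read. At day 1 they ran between 0.49 and 1.65.

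Of the 7 members with a promoter window only Cd36 and Pparg hold AGGTCA there, and the Cd36 window is shown for this reason. It lies on the minus strand at chr5:17835847-17836146 (GRCm38.p6, RefSeq), with the same motifs in capitals.
Cd36: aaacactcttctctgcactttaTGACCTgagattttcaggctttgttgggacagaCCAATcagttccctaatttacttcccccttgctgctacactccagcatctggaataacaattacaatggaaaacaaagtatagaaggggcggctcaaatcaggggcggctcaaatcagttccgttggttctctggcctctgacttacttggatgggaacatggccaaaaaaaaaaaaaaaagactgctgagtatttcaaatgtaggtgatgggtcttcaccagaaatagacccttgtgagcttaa
AGGTCA begins 228 bases before the start on the opposite strand and CCAAT 195 bases before it on the printed strand.

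The lipid droplet genes diverged at day 3. Plin1, the perilipin that coats the adipocyte droplet and restrains lipolysis, stood at 3.27 at day 3, which is 9.65-fold and rank 3 of the 11404 genes, and had no ratio at day 1. Cidec, which enlarges droplets by lipid transfer between them, stood at -0.30 at day 3 and likewise had no ratio at day 1. With the ribosomal protein genes at 0 Cidec stands at 0.28, on the other side of 0 and still inside 2-fold. Lipe, the hormone-sensitive lipase that cleaves diacylglycerol, stood at 0.57 at day 3 and 0.18 at day 1, inside 2-fold on both arrays. The RNA ratios of Plin1 and Cidec were therefore 3.57 apart on the log2 scale on the same array.

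The Plin1 window is shown because Plin1 has the highest ratio of the 10 genes. It lies on the minus strand at chr7:79732727-79733026 (GRCm38.p6, RefSeq) and holds none of the motifs searched.
Plin1: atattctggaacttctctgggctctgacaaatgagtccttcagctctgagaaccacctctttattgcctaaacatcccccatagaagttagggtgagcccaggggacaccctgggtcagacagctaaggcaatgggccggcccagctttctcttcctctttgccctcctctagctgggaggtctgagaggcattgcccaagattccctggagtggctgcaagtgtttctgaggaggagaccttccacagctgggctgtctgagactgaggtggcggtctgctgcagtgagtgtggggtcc

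The genes of secreted adipocyte products had smaller ratios at day 3 than Plin1, Pparg and the capture genes, but not smaller than Lipe or Cidec. Adipoq, which encodes the hormone adiponectin, stood at 1.06 at day 3 (2.09-fold higher) and at -1.36 at day 1 (2.57-fold lower). Of the 8 genes with both ratios only Adipoq was past 2-fold in both directions. Its difference of day 3 minus day 1, 2.42, ranked 23 of 9800 genes. Its day 3 value lies just past 2-fold and comes to 0.97 with the density peak of all genes at 0, and its day 1 value comes to -0.85 with the ribosomal protein genes at 0. Cfd, the serine protease adipsin that activates complement factor B, stood at 1.10 at day 3 (2.15-fold) and 0.05 at day 1 (1.03-fold).

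The Adipoq window is shown because its ratio lies on opposite sides of 0. It lies on the plus strand at chr16:23146286-23146585 (GRCm38.p6, RefSeq).
Adipoq: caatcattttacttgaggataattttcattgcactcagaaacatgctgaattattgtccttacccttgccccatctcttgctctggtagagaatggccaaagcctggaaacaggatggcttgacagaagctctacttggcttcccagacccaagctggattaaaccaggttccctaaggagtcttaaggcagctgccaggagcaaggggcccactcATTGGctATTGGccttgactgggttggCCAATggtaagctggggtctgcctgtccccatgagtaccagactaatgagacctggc
CCAAT begins 34 and 27 bases before the start on the opposite strand and 7 bases before it on the printed strand.

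The promoter table gave 11 windows for 7 of the 10 genes, and Fabp4, Fabp5 and Lpl were not matched. Each motif was searched on both strands in all 32851 windows of the table. AGGTCA was in 3 of the 11 windows (27.3%), from Pparg and Cd36, against 16.3% of all windows. A direct repeat of AGGTCA spaced by 1 base, the element that PPARγ and RXR are known to bind, contains AGGTCA itself and was in none of the 11, against 0.0396% of all windows. TATAAA was in 1 window (9.09%), against 13.6%, and CCAAT in 4 (36.4%), against 37.4%. These are matches of letters within 300 bases and say nothing of binding.

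Ordered by ratio at day 3, Plin1, Fabp5, Cd36, Fabp4, Lpl and Pparg came first, each at least 4-fold higher and each within the top 51 of 11404 genes. A gap of 1.13 separated them from Cfd, Adipoq and Lipe, and a further gap of 0.87 separated these from Cidec. Both gaps exceed the 0.58 between probes of a gene, and all other neighbours differed by less. A difference between 2 genes varies more than this spread of a single value, so the gaps are described only. At day 1 the order was Pparg, Fabp4, Fabp5, Cd36, Lpl, Lipe, Cfd and Adipoq, and the only gap above 0.76 was the 1.41 between Cfd and Adipoq. Of the 6 genes that led at day 3, the 5 with a day 1 ratio lay between 0.49 and 1.65 there, and Adipoq was alone at the low end.

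**Figure D2:**
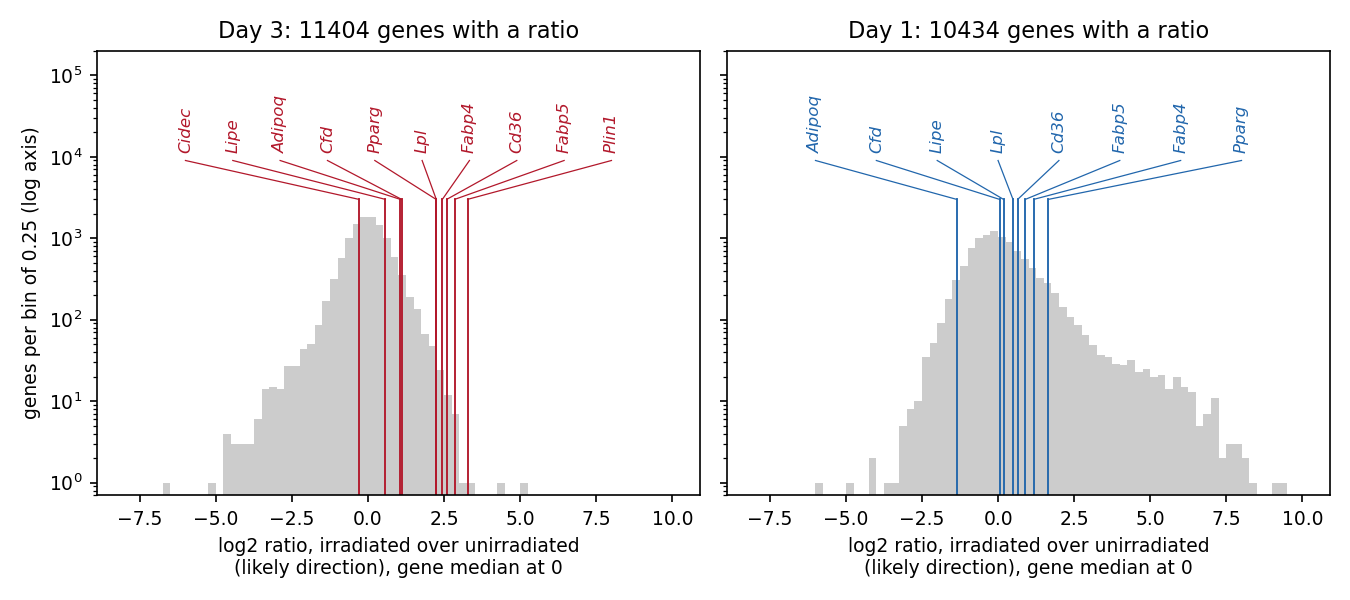
Distribution of the log2 ratios of all named genes at day 3 and day 1, with the median gene at 0 and the 10 genes marked. At day 3 the leading 6 genes, from 2.24 to 3.27, lie in the upper tail, and at day 1 the 8 genes with a ratio lie between -1.36 and 1.65.

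Between the time points, 6 of the 8 genes with both ratios were higher at day 3 than at day 1, none was lower, and their median difference was 1.51. Among all 9800 genes with both ratios, 12.1% were higher and 16.8% lower. The differences were 2.42 for Adipoq, 1.95 for Fabp5, 1.94 for Cd36, 1.75 for Lpl, 1.27 for Fabp4 and 1.05 for Cfd. Pparg (0.58) and Lipe (0.39) differed by less than 2-fold. No neighbours in this order differed by more than the 0.95 that the probe spreads of both arrays give for a difference, so neighbours cannot be ordered. Wider distances, such as that of Adipoq above Pparg and Lipe, exceed 0.95. With the density peak at 0, Fabp4 (0.96) and Cfd (0.75) also fall inside 2-fold, which leaves 4 of 8. The share of all genes higher at that centring was not counted for this difference, and the 12.1% belongs to the median gene at 0.

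**Figure D3:**
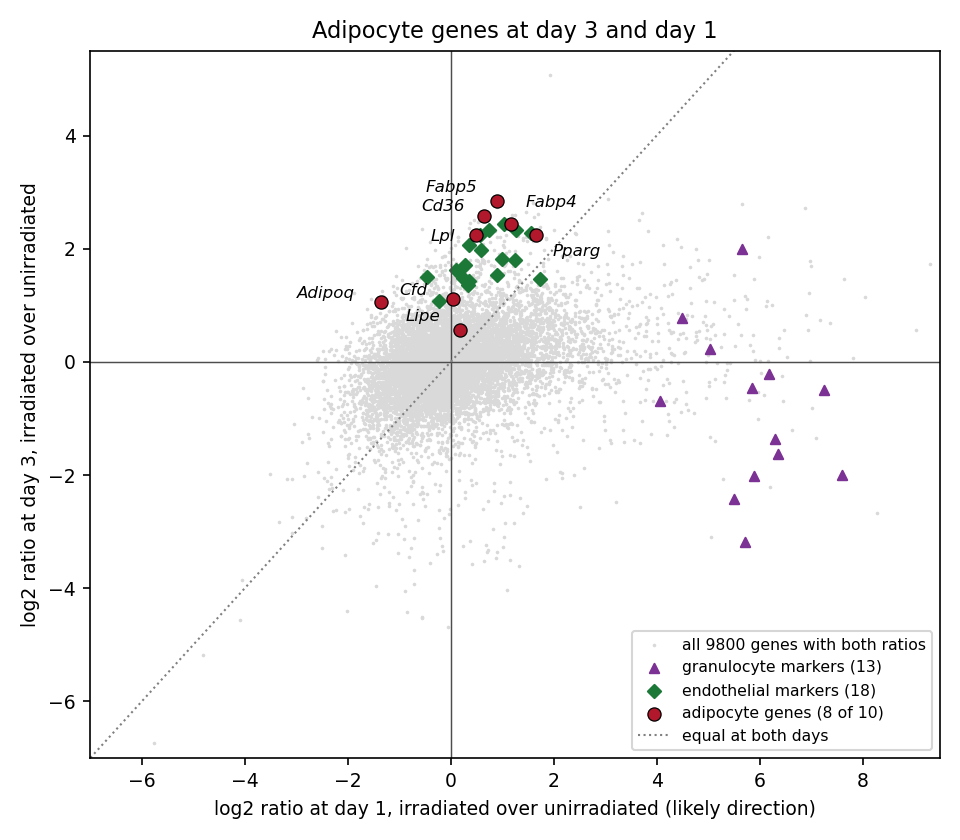
Log2 ratio at day 3 against that at day 1 for the 8 genes with both ratios, among all genes with both, with the median gene of each array at 0. All 8 lie above the line of equal ratios, Adipoq farthest at 2.42 and Lipe nearest at 0.39.

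The other lists of these pathways had lower medians at day 3 than the 2.24 of the 10 genes. Of 26 adipogenic regulators with a ratio at day 3, 3 were higher and 0 lower (median 0.36), and at day 1 7 of 25 were higher and 3 lower, with a median of 0.15. Cebpa, the partner of PPARγ in adipocyte differentiation, stood at 0.29 at day 3 and -0.13 at day 1. Prdm16, a coregulator of brown fat identity, stood at 2.21 at day 3 and 0.15 at day 1, and Cebpb, an early inducer of Pparg, stood at 0.17 and 2.75. Ncor1, a nuclear receptor corepressor, stood at 0.83 at day 3 and 2.22 at day 1. By the mean of both arrays the lowest of the regulators were Stat5a (-0.41 at day 3, -1.59 at day 1) and Ebf2, an early B cell factor of the adipocyte lineage (-0.31 at day 3, -1.82 at day 1), whereas the lowest at day 3 alone was Ppargc1b, a PPAR coactivator, at -0.93. Of 17 inhibitors of adipogenesis 4 were higher and 0 lower at day 3 (median 0.39), and Gata2, a GATA factor that restrains Pparg, stood at 1.87 at day 3 and 2.31 at day 1. Sirt1, a deacetylase that represses PPARγ, stood at 1.14 and 1.07. Of 14 inhibitors with a ratio at day 1, 2 were higher and 1 lower, and the lower one was Pdgfra, a receptor of mesenchymal progenitors (-0.22 at day 3, -1.22 at day 1). Among the other PPAR receptors, named after their values were seen, Ppard stood at 1.33 at day 3 with no ratio at day 1, and Ppara at 0.16 at day 3 and 0.88 at day 1. Pparg was thus the highest of the 3 receptors at day 3. At day 1 Pparg (1.65) stood above Ppara by only about the 0.76 between probes, so no order is read there, and Ppard could not be compared.

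Of 21 other genes of the droplet coat and of lipolysis, 7 were higher and 0 lower at day 3 (median 0.40), and at day 1 10 of 20 were higher, with a median of 0.94. Plin2, the perilipin of most cell types, stood at 0.67 at day 3 and 2.21 at day 1. Pnpla2, the first lipase of triglyceride breakdown, stood at 1.31 and 1.53. Dgat2, which makes triglyceride, stood at 1.44 at day 3 and 4.38 at day 1, and G0s2, the inhibitor of Pnpla2, at 1.41 and 4.28. Of the other perilipins, named after their values were seen, Plin3 (-0.24 at day 3, 0.04 at day 1) and Plin5 (-0.08, -0.34) lay inside 2-fold on both arrays, as did Cidea (0.40, -0.85), a relative of Cidec. Plin1 therefore stood apart from Plin2, Plin3 and Plin5 at day 3 by more than the 0.58 between probes. Dgat1, the other enzyme of that step and the highest of the list at day 1, stood at 0.82 at day 3 and 4.59 at day 1. Dgat1, Dgat2 and G0s2 were thus above 4 at day 1, on the array where granulocyte markers had a median of 5.89 and a range of 4.07 to 7.97. The part of granulocyte RNA in these ratios was not tested.

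Of 26 other genes of fatty acid uptake, binding and lipoprotein handling, 3 were higher and 1 lower at day 3, with a median of 0.25, and at day 1 7 of 27 were higher and 4 lower, with a median of -0.18. The day 1 median turns positive with the density peak at 0 (0.04) or the ribosomal protein genes at 0 (0.33). Gpihbp1, the endothelial protein that carries Lpl to the capillary wall, stood at 2.33 at day 3 and 1.27 at day 1, close to the ratios of Lpl and Pparg at day 3. Angptl4, an inhibitor of Lpl, stood at 0.76 and -0.57. Lipc, the hepatic lipase, was the lowest at -3.41 at day 3 and -2.06 at day 1, and Vldlr, a lipoprotein receptor, stood at -0.44 and -1.80. Lipg, the endothelial lipase, stood at 0.71 at day 3 and 3.15 at day 1. Among the carriers of the Fabp family, named after their values were seen, Fabp3 (-0.94 at day 3, -0.78 at day 1), Fabp6 (-0.13, 0.20) and Fabp7 (0.61, 0.53) lay inside 2-fold on both arrays and Fabp1 stood at -0.27 at day 3 and 1.51 at day 1. These 4 carriers thus lay between -0.94 and 0.61 at day 3, below Fabp4 and Fabp5.

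Of 19 adipokines and receptors, 4 were higher and 2 lower at day 3, with a median of 0.55, and at day 1 7 of 19 were higher and 4 lower, with a median of -0.24 that turns positive (0.27) with the ribosomal protein genes at 0. Lepr, the leptin receptor and a marker of the perisinusoidal stroma, stood at 1.27 at day 3 and -0.82 at day 1, a difference of 2.09 beside the 2.42 of Adipoq. Apln, a peptide ligand of endothelium and fat, stood at 2.02 at day 3 and 2.21 at day 1. Of 20 genes of fatty acid and triglyceride synthesis 1 was higher and 1 lower at day 3, with a median of -0.17, which turns positive (0.41) with the ribosomal protein genes at 0, and at day 1 4 of 19 were higher and 3 lower (median 0.15). Mogat2, a monoacylglycerol acyltransferase, stood at -0.31 at day 3 and 5.13 at day 1, and Elovl6, a fatty acid elongase, at -0.38 and -1.52. Brown and beige adipocyte genes had ratios for 8 of 15 at day 3, of which 2 were higher, and a median of 0.06 that turns negative with the density peak at 0 (-0.03), and at day 1 0 of 7 were higher and 1 lower (median -0.69). Of 7 alternative complement genes none was past 2-fold at day 3, with a median of 0.26, and Cfp, which stabilises the convertase that Cfd activates, stood at 0.42 at day 3 and 4.97 at day 1. At day 1 3 of 6 of these genes were higher (median 1.30), and Cfb, the substrate of Cfd, stood at 0.23 at day 3 and -0.75 at day 1.

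**Figure D4:**
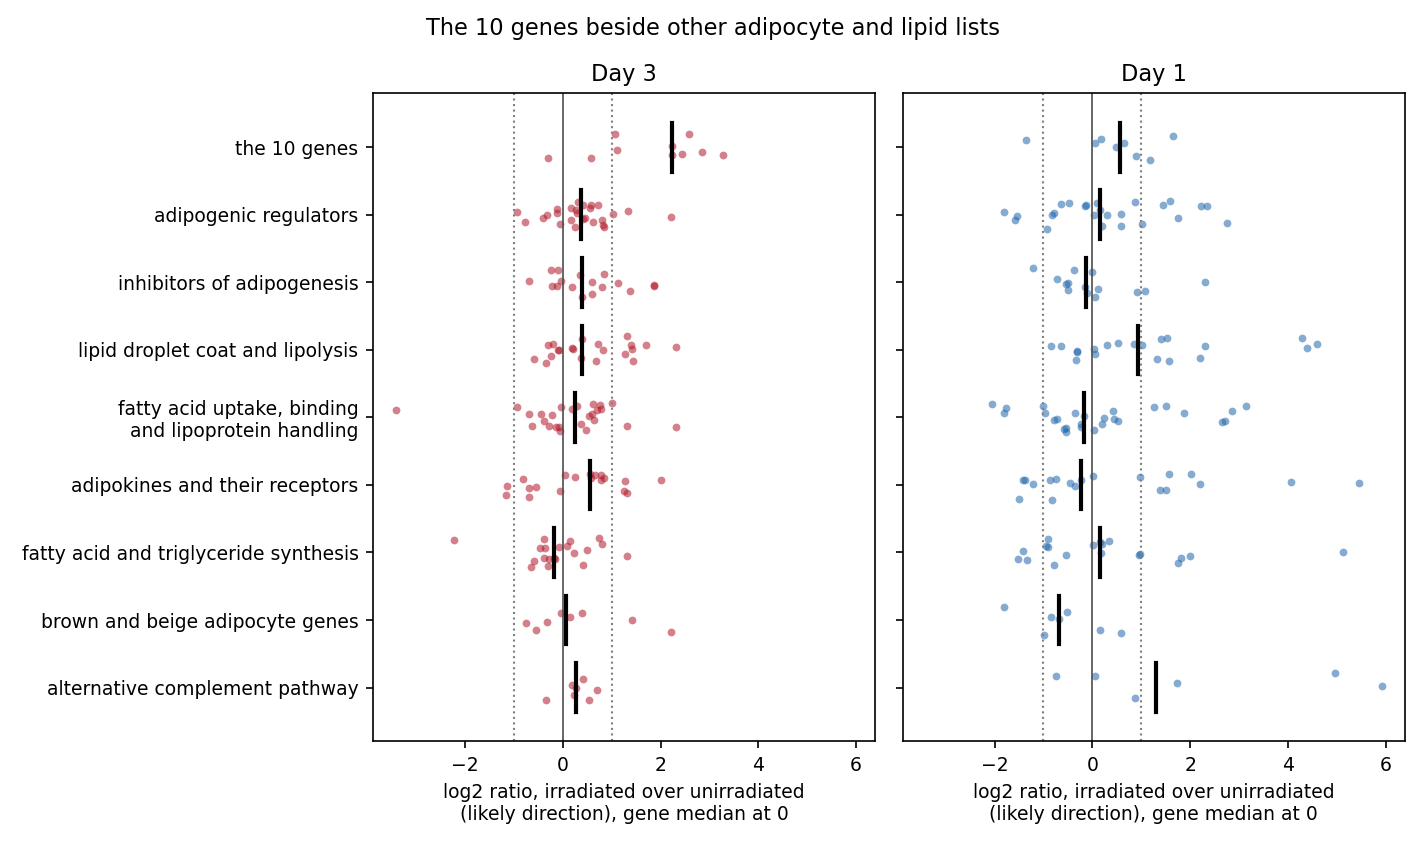
Log2 ratios at day 3 and day 1 of the 10 genes and of the other gene lists of the pathway, with each point a gene, a bar at each median and the median gene of the array at 0. At day 3 the 10 genes have a median of 2.24, and the medians of the lists named in the text lie between -0.17 and 0.55.

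The labelled cell type was set against marker genes. Mesenchymal and niche stroma markers had ratios for 17 of 20 genes at day 3, 7 higher and 0 lower (median 0.74), and at day 1 3 of 17 were higher and 2 lower, with a median of 0.01. Cxcl12, the chemokine of perisinusoidal stroma, stood at 0.74 at day 3 and -0.19 at day 1, and Rgs5, a pericyte marker, at 2.59 and 1.24. Osteoblast markers had a median of -0.64 at day 3 and -1.10 at day 1, and Col1a1, collagen of bone and fibroblasts, stood at -1.50 and -1.14. Ratios say nothing of how much of each cell type either sample held, so the purity of the stroma was not assessed.

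Endothelial markers moved with the 10 genes at day 3: 18 of 20 were higher and 1 lower (Erg, -1.30), with a median of 1.66 and a highest value of 2.43 in Flt1. At day 1, 5 of 18 endothelial markers were higher and 0 lower (median 0.58), beside the day 1 median of 0.57 of the 8 adipocyte genes. The endothelial markers Pecam1 and Robo4 stood at 2.33 and 2.27 at day 3 and at 0.73 and 1.57 at day 1. Between the time points 13 of 18 endothelial markers were higher at day 3 than at day 1, with a median of 1.27 beside the 1.51 of the adipocyte genes. At day 3 Pparg, Lpl, Cfd, Adipoq, Lipe and Cidec lay within the range of the endothelial markers, whose low end of -1.30 is set by Erg. Plin1, Fabp5, Cd36 and Fabp4 lay above its highest value, and only Plin1 by more than the 0.58 between probes. The part of endothelial RNA in these ratios was not tested.

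Leukocyte markers differed between the arrays in the other direction. Macrophage and monocyte markers had a median of 0.82 at day 3 (4 of 10 higher) and 4.02 at day 1 (11 of 13 higher), and Csf1r, their growth factor receptor, stood at -0.20 at day 3 and 0.78 at day 1. Csf1r was the lowest of these markers at day 3. Higher at day 3 were C1qb (1.49 at day 3, 4.83 at day 1), Cx3cr1 (1.37, 2.02), Cd14 (1.17, 5.71) and Cd68 (1.06, 3.71), all named after their values were seen. The highest at day 1 was Ccr2, a monocyte chemokine receptor, at 6.17, with no ratio at day 3, and Adgre1, a macrophage marker, had no ratio on either array. The part of macrophage RNA in the ratios of Cd36, Fabp4, Fabp5, Lpl and Pparg was not tested. Granulocyte markers had a median of -0.70 at day 3 and 5.89 at day 1, and pan-leukocyte markers a median of 0.01 at day 3 and 5.23 at day 1, with Ptprc at 7.12 at day 1 and no ratio at day 3. Erythroid markers were low on both arrays, with medians of -1.93 at day 3 and -3.18 at day 1 and Gata1 at -3.85 and -4.06. The day 1 ratios of the adipocyte genes were thus read on an array on which all 17 granulocyte markers were at least 4.07. The part of granulocyte RNA in those ratios was not tested.

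**Figure D5:**
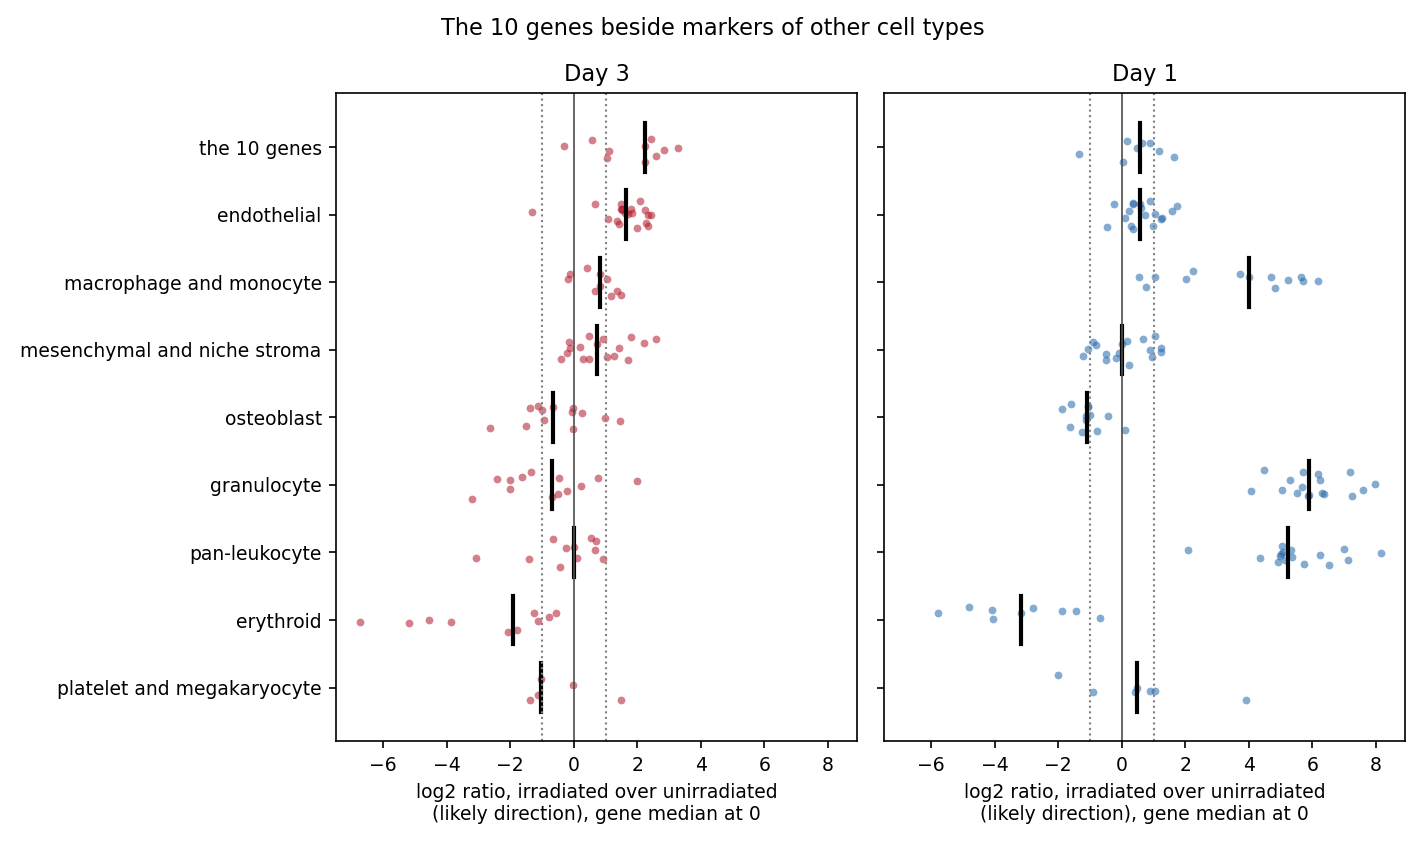
Log2 ratios at day 3 and day 1 of the 10 adipocyte genes and of markers of other cell types, with each point a gene, a bar at each median and the median gene of the array at 0. Endothelial markers have medians of 1.66 at day 3 and 0.58 at day 1, and granulocyte markers -0.70 and 5.89.

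Searched over 9792 other named genes with a ratio on both arrays, the genes whose 2 ratios lay nearest those of Pparg were Robo4 (2.27 at day 3, 1.57 at day 1, distance 0.092), Phlda3 (2.13, 1.60, distance 0.116) and Ltc4s (2.39, 1.73, distance 0.171). Robo4 is a receptor of endothelium and Phlda3 a p53 target. Nearest to Fabp5 were Sema3g (2.80, 0.86, distance 0.0612), Shd (2.74, 0.89, distance 0.105) and Ptprb (2.60, 1.20, distance 0.39). Sema3g and Ptprb are genes of endothelium but, like Ltc4s and Shd, were not in the marker lists used here. With 2 ratios per gene many genes lie close by, and nothing is read from it on function or control.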

How the data were processed

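Bone marrow stromal cells of 3 groups (3 days and 1 day after irradiation, and unirradiated) were measured on 2 two-colour arrays. Per the labels' protocols, RNeasy total RNA went through amino allyl aRNA amplification and then dye coupling. The deposited values are log ratios, read as log2. The steps by which the authors scanned, corrected, normalised and filtered them are not given in the sources used here. Their medians of -0.0001 (day 3) and 0.0003 (day 1) show that the deposited ratios were centred.

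Symbols of the platform annotation were updated through RefSeq genes. Of 23473 probes 16631 were named with 1 symbol and 6842 were unnamed; 3947 matched by an older name. Probes were averaged per gene and the gene median subtracted (0.0162 at day 3, -0.0119 at day 1). Genes were described by size, with no test. The members and lists were chosen with earlier results of these data known, and the members were grouped by role with their values known. Named besides the 10 members were, by rule, the 2 highest and 2 lowest of each list by mean ratio (markers: 1 of each) and a fixed set, though not all are printed. Dgat1, Ppargc1b and Flt1, each an extreme of its list on 1 array, were named after their values were seen, as were the genes so marked above. Alternatives were other centrings, probe rules, genes, size limits and the turned sign. The scripts, tested on simulated data, used Python 3.11.15, numpy 2.4.6, pandas 2.3.3 and matplotlib 3.10.9.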

Additional observations from a re-analysis of the deposited data

Results flagged for a closer look

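Adipoq lay past 2-fold on opposite sides of 0, at 1.06 at day 3 and -1.36 at day 1, a difference of 2.42 on the log2 scale. This was noticed because the 2 arrays moved in opposite directions. The day 3 value of Adipoq comes to 0.97 with the density peak of all genes at 0. Its day 1 value comes to -0.85 with the ribosomal protein genes at 0, so each call falls inside 2-fold under 1 other centring. The difference was not tested, since each time point has 1 array.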

How the results depend on the processing

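Each of the 10 genes has 1 probe, so other rules for averaging probes could not change their deposited ratios. The density peak at 0, the deposited values without further centring, and the genes with a ratio on both arrays shift an array by at most 0.22. That is less than the spread between probes, so the medians of the members had little room to move and stayed within that spread. Counts stayed within 1.5 times. With the density peak at 0, 3 of 8 were higher at day 1, where 24.2% of all genes were higher, and 4 of 8 for day 3 minus day 1. With ribosomal protein genes at 0, the median of the 10 genes was 2.82 at day 3, and at day 1 4 were higher and 0 lower, where 31.8% of all genes were higher and 3.57% lower. At least 1.5-fold gave 4 higher at day 1, and at least 3-fold gave 1 higher and 0 lower there. The share of all genes past these 2 limits was not counted, so nothing is read from these counts.

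With the sign turned (unirradiated over irradiated), 0 were higher and 8 lower at day 3 (median -2.24), 1 was higher and 2 lower at day 1 (median -0.57), and for day 3 minus day 1 0 were higher and 6 lower (median -1.51). By construction every ratio reverses. At day 3 they become -3.27 for Plin1, -2.85 for Fabp5, -2.59 for Cd36, -2.44 for Fabp4, -2.24 for Lpl and Pparg, -1.10 for Cfd and -1.06 for Adipoq. At day 1 they become -1.65 for Pparg, -1.17 for Fabp4 and 1.36 for Adipoq. The differences become -2.42 for Adipoq, -1.95 for Fabp5, -1.94 for Cd36, -1.75 for Lpl, -1.27 for Fabp4 and -1.05 for Cfd.

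No paired analysis was possible because each time point has 1 array. No intensities were analysed here, so signal over background is unknown.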
